A study of Mus musculus with 27 samples.

Results

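The optic stalk is the tube of neuroepithelium that joins the embryonic eye cup to the brain, and the effect of losing Smarcc1 was compared here between its dorsal and its ventral side. Smarcc1 encodes a core scaffold protein of SWI/SNF, the chromatin remodelling complex that moves nucleosomes and thereby opens or closes DNA to transcription factors. The contrast is the mutant minus control difference in the dorsal stalk minus the same difference in the ventral stalk. It uses 18 of the 27 libraries, namely a dorsal and a ventral piece from 4 control and 5 mutant embryos at embryonic day 14 (E14), and the axon-rich pieces of the same embryos enter the edgeR fit, where they bear on which genes were tested and on the spread and batch estimates but not on the contrast itself. The mutants, Smarcc1-DCT-cKO, carry Baf155 loxP/loxP, Dct-Cre and the Z/EG reporter. Controls were littermates without Dct-Cre, on the same C57Bl6/J background. Cre follows the promoter of Dct, a pigment gene, so deletion depends on which stalk cells have used that promoter. Counts over the whole gene do not tell a recombined Smarcc1 transcript from an intact one. Each piece was cut by laser from stained frozen sections, and its cDNA was amplified before sequencing.

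The dorsal stalk is continuous with the presumptive retinal pigment epithelium (RPE), the pigmented layer of the eye, and the ventral stalk lies along the closing optic fissure. Stalk cells give rise to astrocyte progenitors, the glial precursors of the optic nerve, which are marked by Pax2, Sox2 and Sox9. The contrast asks which genes respond to the loss of Smarcc1 in the dorsal stalk only, in the ventral stalk only, or in both alike. By antibody staining, the paper reports that mutants first lacked Smarcc1 dorsally, at an earlier stage when the ventral stalk still had it. By E14 it was gone from the whole stalk. Side and time since deletion therefore cannot be told apart in this contrast.

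The 18 libraries held 10.9 to 34.0 M counts, so that 1 read was worth 0.0294 to 0.0917 CPM (counts per M counts). Between 10881 and 16810 genes had a count. Smarca4, the ATPase of the complex, which no allele targets, differed between the genotypes by -0.02 dorsally and by -0.19 ventrally on the log2(CPM + 1) scale. The pieces are mixtures, and fewer cells of a type cannot be told apart from less RNA per cell. Dorsal control 3 stood apart, with the fewest genes and the highest level of mesenchyme genes, so values without it are given for Ptn and for several gene lists.

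Smarcc1 itself was at 116, 75.9, 289 and 97.2 CPM in the dorsal pieces of controls 1 to 4, and at 94.9, 107, 2.26, 44.3 and 24.5 CPM in those of mutants 1 to 5. In the ventral pieces the controls had 198, 90.8, 75.7 and 155 CPM and the mutants 40.2, 64.4, 23.3, 24.7 and 14.7 CPM. The ventral groups did not overlap, whereas dorsal mutants 1 and 2 lay within the control range. The genotype difference was -1.94 dorsally (exact permutation test, two-sided, p = 0.0952, n = 4 and 5) and -1.99 ventrally (exact p = 0.0159), on the log2(CPM + 1) scale. Splitting only within batch gave exact p = 0.1 and exact p = 0.025. Adjusted over the 18 single-value tests, the exact p was 0.381 dorsally and 0.143 ventrally. The smallest p that the exact test can give is 0.0159, so no single test could pass that adjustment alone. The dorsal effect minus the ventral effect was 0.05 (exact p = 0.921). The counts thus went with the genotype label in every ventral library, and in the dorsal ones except mutants 1 and 2.

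Smarcc2, the paralogous scaffold subunit, which no allele in these mice removes, had an unequal genotype difference. Its dorsal level was 138, 146, 76.2 and 74.6 CPM in controls and 41.6, 7.09, 45.2, 23.7 and 32.5 CPM in mutants. Its ventral level was 16.3, 36.9, 13.2 and 45.6 CPM in controls and 20.6, 57.2, 31.8, 36.3 and 35.6 CPM in mutants. Every dorsal mutant lay below every dorsal control, and the ventral groups overlapped. The dorsal difference was -1.98 (exact permutation p = 0.0159) and the ventral one 0.47 (exact permutation p = 0.333), which leaves -2.44 between them (exact permutation p = 0.0317, within batch 0.05, and 0.19 adjusted over the 18 tests). The edgeR interaction of Smarcc2 was -2.28 ± 1.46 (SE, log2) with an adjusted p of 0.927.

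Across the 16330 genes with enough counts, the edgeR quasi-likelihood test of the interaction called 1 gene (0.00612%) at an adjusted p under 0.05 and an absolute log2 difference over 0.58. That gene was Ptn. A further fit that compared the pieces within each embryo also called 1 gene (0.00612%), again Ptn. Without adjustment, 1206 genes (7.39%) had an interaction p under 0.05 in edgeR, 598 (3.66%) with a higher and 608 (3.72%) with a lower dorsal effect, and 375 (2.3%) within embryos. The contrasts that make up the interaction called few genes as well, 2 dorsally (0.0122%) and 0 ventrally (0.0%). The dorsal genes were Ptn and Mfap2. Dorsally, 1223 genes (7.49%) had an unadjusted edgeR p under 0.05, and DESeq2 called 658. Ventrally, 930 genes (5.7%) had an unadjusted edgeR p under 0.05, and DESeq2 called 507. Of the DESeq2 calls, 591 dorsally and 504 ventrally had a dorsal or ventral library at 10 counts or fewer.

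Ptn (ENSMUSG00000029838.11, chr6:36714929-36810220 on mm10, minus strand) encodes pleiotrophin, a secreted heparin-binding growth factor that acts on neural progenitors and glia. Its dorsal level was 1302, 1589, 2364 and 1910.0 CPM in controls 1 to 4 and 157, 326, 274, 562 and 921 CPM in mutants 1 to 5. Its ventral level was 1645, 2102, 2033 and 2206 CPM in controls and 1558, 1380.2, 2611, 3296 and 3362 CPM in mutants. All 5 dorsal mutants lay below all 4 dorsal controls, and the ventral mutants spread over and above the control range. Within an embryo, the dorsal piece differed from the ventral one by -0.40 to 0.22 on the log2(CPM + 1) scale in controls and by -3.30 to -1.87 in mutants.

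The edgeR interaction of Ptn was -2.37 ± 0.34 (SE, log2; 95% interval -3.06 to -1.67), with an adjusted p of 0.00232. Within embryos it was -2.42 ± 0.27, with an edgeR adjusted p of 0.000289. It combined a dorsal difference of -1.81 ± 0.24 (edgeR adjusted p = 0.000526) with a ventral one of 0.56 ± 0.24 that did not pass (edgeR adjusted p = 0.853). The edgeR difference was -2.54 in batch A alone, which holds only 1 control embryo beside 3 mutants. In batch B alone, with 3 controls and 2 mutants, it was -1.999 and did not pass (adjusted p = 1). Without control 3 it was -2.22 and missed the threshold (edgeR adjusted p = 0.0925). Of the other genes of the pleiotrophin and midkine family and its receptors, none was called by edgeR. Ptprs, a receptor phosphatase, differed by -1.09 dorsally and 0.27 ventrally, and Alk, a receptor tyrosine kinase, had 3.7, 29.2, 0 and 2.15 CPM in dorsal controls and 0 CPM in all 5 dorsal mutants.

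The genes were also sorted by whether the groups overlapped, which is a description and no test. A side was said to respond when its 5 mutants all lay above or all below its 4 controls, with means at least 1 apart on the log2(CPM + 1) scale. The sides were said to differ when the same held for the dorsal minus ventral difference within embryos. By this rule 384 genes (2.35%) responded dorsally, 149 higher (0.912%) and 235 lower (1.44%), and 139 (0.851%) responded ventrally, 48 higher (0.294%) and 91 lower (0.557%). The sides differed in 250 genes (1.53%), with a higher dorsal effect in 127 (0.778%) and a lower one in 123 (0.753%). Of the 126 splits of the embryos, 1 separates the groups fully in a given direction, a share of 0.00794 before the limit of 1. In each direction the ventral shares and those for sides that differed were under it, and the dorsal shares above it. Membership in a class is thus no evidence of a response by itself. A response on the dorsal side only, with sides that differed, was found for 107 genes (0.655%), of which 40 were higher and 67 lower in mutants. A response on the ventral side only was found for 12 (0.0735%), and one on both sides in the same direction without a difference for 5 (0.0306%). No gene responded in opposite directions (0 of 16330, 0.0%). Of the 107 dorsal-only genes, 50 had an unadjusted edgeR interaction p under 0.05, of the 12 ventral-only genes 3, and of the 5 genes alike on both sides 0. Over all genes tested the share was 7.39%. The classes were picked by separation in the same libraries, so these counts lend them no support.

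**Figure D1:**
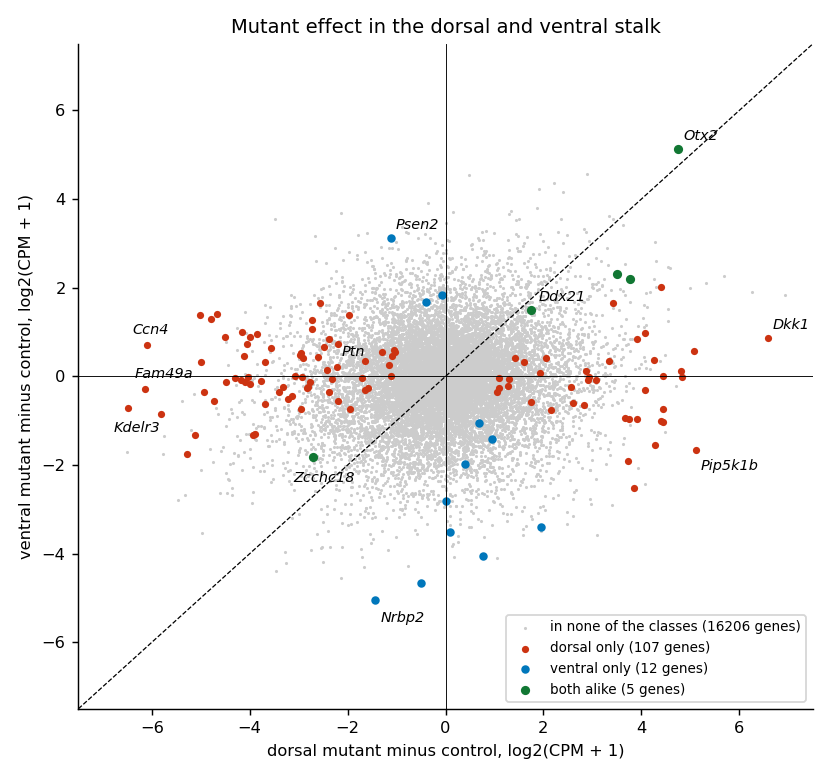
Each point is 1 of 16330 genes, placed by its mutant minus control difference in the dorsal stalk (x axis) and in the ventral stalk (y axis), both as log2(CPM + 1). Colours mark the 107 dorsal-only genes, the 12 ventral-only genes and the 5 genes alike on both sides, and the dashed line marks equal effects. The classes rest on overlap, so genes can lie off the axes or the line. Dorsal-only Onecut2 had a ventral difference of 2.02, and Ska1, alike on both sides, had 3.76 dorsally and 2.19 ventrally.

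Several of the dorsal-only genes that lay lower in mutants are genes of astrocyte progenitors and of neural patterning. Hes1, a Notch effector that holds neural progenitors back from differentiation, was at 259.7, 325, 283 and 187 CPM in dorsal controls and at 78.4, 90.7, 70.6, 101 and 93.7 CPM in dorsal mutants. Ventrally the controls had 337, 297, 366 and 353 CPM and the mutants 187, 199, 318, 398 and 370.5 CPM. The dorsal groups were apart and the ventral ones overlapped, and the edgeR interaction of Hes1 was -1.36 ± 0.41 (unadjusted p = 0.00245, adjusted p = 0.495). Slc1a3, the glial glutamate transporter GLAST, had 279, 526, 247 and 507 CPM in dorsal controls against 117, 87.6, 85.8, 117 and 173 CPM in dorsal mutants. Its ventral levels overlapped, and its edgeR interaction was -1.75 ± 0.52 (adjusted p = 0.495).

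Zic1 encodes a zinc-finger transcription factor of neural patterning. Dorsal controls held it at 256, 239.6, 267 and 269 CPM, a narrow range, and dorsal mutants at 0, 26.6, 11.2, 51.9 and 33.4 CPM. Ventral controls had 131, 216, 187 and 249 CPM and ventral mutants 158, 93.4, 265, 236 and 211 CPM. The dorsal groups lay far apart and the ventral groups covered the same range. The edgeR interaction of Zic1 was -3.62 ± 1.02 (unadjusted p = 0.0013, adjusted p = 0.495). Tgfb2, a TGF-beta ligand, likewise had dorsal controls of 345, 916, 384 and 391 CPM and dorsal mutants of 48.2, 73.5, 87.9, 147 and 120.4 CPM, with differences of -2.38 dorsally and -0.36 ventrally. Fam49a, a regulator of actin, was at 65.9, 93.8, 51.9 and 85.7 CPM in dorsal controls and at 0, 0.119, 0, 0 and 0.0665 CPM in dorsal mutants, while ventral mutants kept 16.8 to 87.3 CPM.

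Over the whole list of astrocyte progenitor genes the dorsal shift was larger than the ventral one. Of 16 members tested, 7 responded dorsally, all lower, against 1.44% of all genes. Ventrally 1 responded, higher, against 0.294% of all genes. The median difference was -1.32 dorsally and -0.13 ventrally, against 0.00 and -0.02 over all genes tested. The median of the dorsal minus ventral differences was -1.29, against 0.06 over all genes, and edgeR called 0 of the 16 interactions. The mean level of the list was 6.37 to 6.50 in dorsal controls and 4.65 to 6.01 in dorsal mutants on the log2(CPM + 1) scale, without overlap. Ventral controls had 6.02 to 6.69 and ventral mutants 5.68 to 6.63.

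Pax2, which specifies the stalk, was at 38.8, 33.1, 0.826 and 39.2 CPM in dorsal controls and at 0.0917, 1.79, 3.89, 3.17 and 5.78 CPM in dorsal mutants. Dorsal control 3 was thus among the mutants and the other controls above all of them. Sox2, a factor of neural progenitors, had 103, 120.1, 25.5 and 54.7 CPM in dorsal controls and 1.65, 70.8, 3.11, 29.2 and 80.1 CPM in dorsal mutants, which overlapped, and its differences were -1.86 dorsally and -0.00 ventrally. Sox9, a glial factor, was apart dorsally, at 244, 263, 237 and 286 CPM against 159, 90.6, 192, 119 and 157 CPM, with a mean difference of -0.88, under the limit of 1. Vim, the intermediate filament vimentin, had dorsal controls of 1344 to 2575 CPM and dorsal mutants of 489 to 1035 CPM, and its edgeR interaction within embryos was -0.98 ± 0.17 (unadjusted p = 1.38e-05, adjusted p = 0.113). Vax1, a ventral homeobox factor, was at 11.6 CPM or less in all 18 libraries, so that it marks neither side here.

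**Figure D2:**
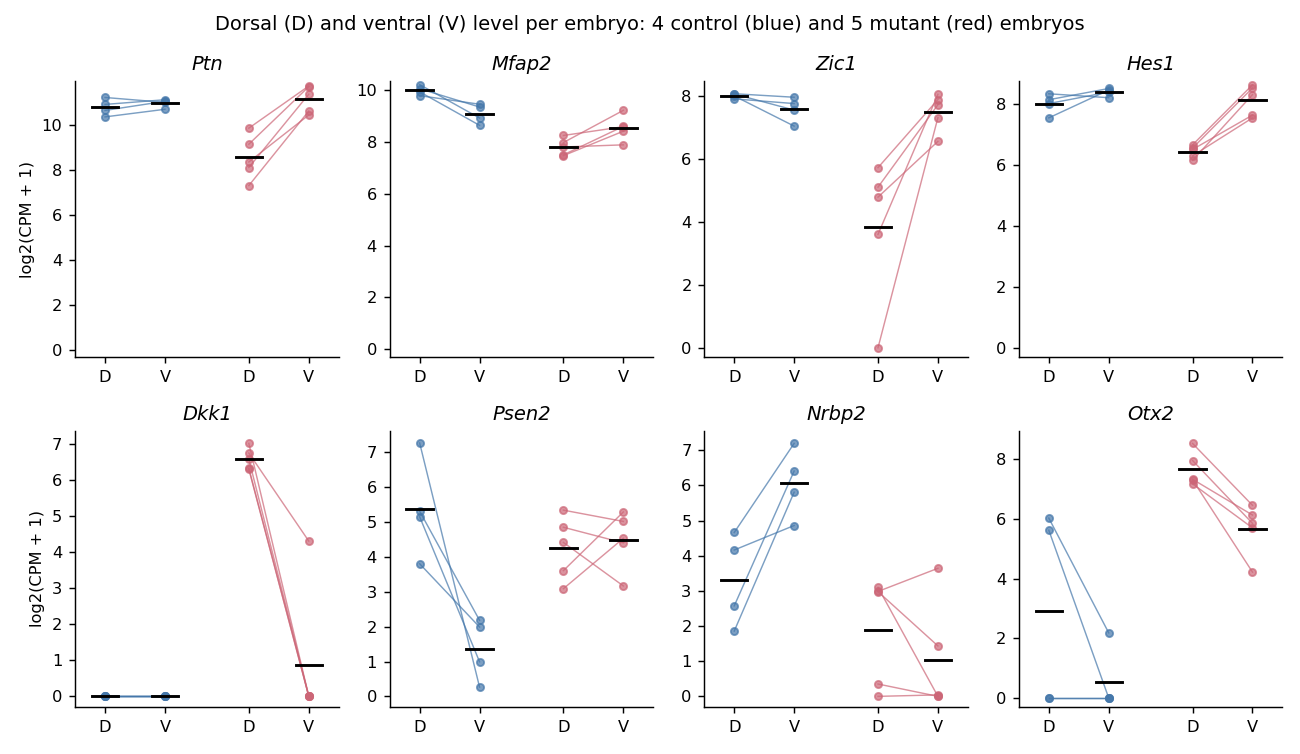
Levels on the log2(CPM + 1) scale in the dorsal (D) and ventral (V) piece of each embryo, for 4 control and 5 mutant embryos. Thin lines join the pieces of an embryo and black bars are group means. Ptn, Mfap2, Zic1 and Hes1 were lower in dorsal mutants, Dkk1 was higher there, Psen2 and Nrbp2 differed ventrally, and Otx2 was higher on both sides.

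The microfibril list also held genes with a dorsal response. Mfap2 (microfibril-associated protein 2), which binds fibrillin, was at 1176, 875, 969 and 1053 CPM in dorsal controls and 249.6, 176, 222, 179 and 302 CPM in dorsal mutants. Ventral controls had 481, 696, 396 and 646 CPM and ventral mutants 591, 338, 235, 385 and 381 CPM. The dorsal groups were widely apart and the ventral groups overlapped. Mfap2 fell dorsally by an edgeR log2 difference of -2.22 ± 0.32 (adjusted p = 0.00119), and its interaction of -1.62 ± 0.44 did not pass (adjusted p = 0.495). Fbn1, which encodes fibrillin-1 and shares 20.1% of its exonic bases with Gm9913, had 251, 182, 207 and 295 CPM in dorsal controls and 56.0, 20.9, 81.3, 65.1 and 46.3 CPM in dorsal mutants. Ventrally Fbn1 was at 84.8, 35.8, 91.4 and 63.8 CPM in controls and 116, 56.2, 157, 144 and 102 CPM in mutants, overlapping but higher on average, and its edgeR interaction was -2.82 ± 0.92 (adjusted p = 0.495).

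Of the 12 microfibril and elastic matrix genes, 3 responded dorsally, all lower, against 1.44% of all genes. The list median was -2.20 dorsally and 0.00 ventrally. Eln, which encodes elastin, was at 0, 53.7, 184 and 16.7 CPM in dorsal controls and at 0, 0, 0.353, 0 and 0 CPM in dorsal mutants. Control 1 held no Eln, so those groups overlapped. The median of the 12 dorsal minus ventral differences was -2.25, against 0.06 over all genes, and edgeR called 0 of them.

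Genes of periocular mesenchyme, the connective tissue around the stalk, had the lowest dorsal median of all lists. All 14 members had a more negative difference dorsally than ventrally, as had 47.8% of all genes, with medians of -4.19 and -1.01 and a median dorsal minus ventral difference of -3.28. Dorsal mutants were lower without overlap for 6 of the 14, against 1.44% of all genes, and edgeR called 0 interactions. Col1a1, a chain of type I collagen, had 29.4, 216, 938 and 156 CPM in dorsal controls and 2.29, 0.596, 3.53, 6.21 and 10.4 CPM in dorsal mutants. The edgeR interaction of Col1a1 had an unadjusted p of 0.453. Col1a2, the other chain, had 157, 562, 1891 and 223 CPM against 4.4, 17.1, 71.7, 70.8 and 69.5 CPM, and its edgeR interaction was -3.63 ± 1.03 (unadjusted p = 0.0014, adjusted p = 0.495). Both genes were highest in dorsal control 3 and varied widely among the dorsal controls. The mean list level in dorsal controls was 3.73, 6.72, 8.61 and 5.95 on the log2(CPM + 1) scale, above all dorsal mutants at 1.21 to 3.21, and the ventral levels of 0.68 to 4.23 in controls and 0.90 to 1.75 in mutants overlapped. The mesenchyme list, Ptn, Mfap2, Fbn1 and Tgfb2 were all lower in dorsal mutants. Among the dorsal controls Ptn was also highest in control 3, whereas Mfap2, Fbn1 and Tgfb2 were highest in other controls. The part of mesenchyme in the values of these genes was not tested. Without control 3 the medians of the mesenchyme list were -3.34 dorsally and -0.23 ventrally, and the median dorsal minus ventral difference was -3.33.

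Some dorsal-only genes were at 0 in every dorsal mutant or every dorsal control, where only a bound can be given, computed against 3 counts per library. Kdelr3, a receptor that returns proteins to the endoplasmic reticulum, was at 102, 145, 61.5 and 66.9 CPM in dorsal controls and at 0 in the 5 dorsal mutants, at least 437-fold lower. Ventrally it was detected in controls 3 and 4 (43.9 and 32.5 CPM) and in mutants 1 and 4 (84.1 and 8.29 CPM). Ccn4, a matricellular target of Wnt signalling, was at 20.6, 113, 177 and 48.0 CPM in dorsal controls and at 0 in the 5 dorsal mutants, at least 419-fold lower. Bounds of this kind cover counting error only, since the reads were amplified and carry no molecular identifiers.

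The reverse pattern was seen for Dkk1 (chr19:30545863-30549665 on mm10), a secreted Wnt antagonist that is expressed in embryonic RPE. It was at 0 in the 4 dorsal and the 4 ventral controls. The dorsal mutants had 77.3, 93.7, 128, 106 and 78.5 CPM, at least 560-fold more than dorsal controls. Among ventral mutants it was detected in mutant 4 only, at 18.7 CPM. The edgeR interaction of Dkk1, with both control groups at 0, had an unadjusted p of 0.999. Wif1, another secreted Wnt inhibitor, went the other way, with dorsal mutants at 119, 107, 133, 178 and 426 CPM against 385, 534, 350.2 and 543 CPM in dorsal controls. Its ventral mutants, at 488 to 1089 CPM, were on average above the ventral controls, at 229.9 to 609 CPM, and the edgeR interaction of Wif1 was -2.23 ± 0.64 (unadjusted p = 0.0016, adjusted p = 0.495). Over the Wnt antagonists, ligands and targets the median dorsal minus ventral difference was -0.26, or -0.99 without mutants 1 and 2.

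Some pigment genes lay higher in dorsal mutants. Gpr143, a receptor of the melanosome membrane, was at 0 in the 4 dorsal controls and at 1.1, 25.4, 108, 48.8 and 61.4 CPM in dorsal mutants, at least 284-fold more. In the ventral pieces it reached 0.0621 CPM in control 4 and was 0 in the other 8. Tyr, the rate-limiting enzyme of melanin synthesis, was at 122, 0, 0 and 43.7 CPM in dorsal controls and 798, 668, 919.7, 612 and 427 CPM in dorsal mutants. Ventral controls had 32.1, 9.38, 0 and 0 CPM and ventral mutants 65.3, 8.3, 0, 42.7 and 38.0 CPM, so Tyr was apart dorsally and overlapped ventrally. Dct, a later enzyme of the pathway and the source of the Cre promoter, was at 304, 30.6, 1.95 and 171 CPM in dorsal controls and 1175, 332, 924, 222 and 533 CPM in dorsal mutants, with mutant 4 under the highest control. Its ventral level was 34.1, 4.35, 46.2 and 13.2 CPM in controls and 69.1, 9.4, 80.8, 10.1 and 41.1 CPM in mutants, which overlapped. Dct was thus detected in all 18 libraries, and in 8 of the 9 embryos, all but control 3, the dorsal piece was the higher one.

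The promoters of Dct and Tyr are shown because one drives the Cre and the other belongs to the melanin enzyme with the clearest dorsal response. Each line gives the 250 bases before the gene start (RefSeq, GRCm38.p6, minus strand, 5′ to 3′), at chr14:118052247-118052496 for Dct and chr7:87493513-87493762 for Tyr. Capitals mark the M-box, TCATGTG or its reverse complement CACATGA, a motif known to be bound by Mitf, the pigment cell transcription factor.
Dct: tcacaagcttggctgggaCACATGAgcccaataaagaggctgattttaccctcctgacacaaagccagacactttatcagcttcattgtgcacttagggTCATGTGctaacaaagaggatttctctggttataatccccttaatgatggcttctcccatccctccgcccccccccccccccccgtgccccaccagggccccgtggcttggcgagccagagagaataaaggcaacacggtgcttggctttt
Tyr: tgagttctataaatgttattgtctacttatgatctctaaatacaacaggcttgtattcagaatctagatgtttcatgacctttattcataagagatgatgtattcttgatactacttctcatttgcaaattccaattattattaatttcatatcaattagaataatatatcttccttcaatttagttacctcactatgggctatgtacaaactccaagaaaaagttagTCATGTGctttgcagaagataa
The motif stood in 5 of the 10 melanin genes with a promoter entry and in 1068 of all 32851 promoters (3.25%). A match of 7 letters is a description and not a binding site.

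Over the 16 melanin and melanosome genes, 12 (75%) had a higher difference dorsally than ventrally, against 52.2% of all genes. Their median difference was 3.10 dorsally and 0.47 ventrally, and the median dorsal minus ventral difference was 3.001, or 1.85 without control 3, in which pigment genes were lowest of all dorsal pieces. Non-overlapping groups were found dorsally for 2 genes, Tyr and Gpr143, and ventrally for 1 gene, Tyrp1, all higher. Over all genes, 0.912% responded higher dorsally and 0.294% ventrally. Tyrp1, a melanosomal enzyme, had 0, 0, 0.8 and 17.8 CPM in ventral controls and 222, 47.9, 61.9, 32.8 and 25.5 CPM in ventral mutants, whereas dorsally the controls (87.5, 65.9, 0 and 21.0 CPM) and mutants (319.7, 100.3, 655, 13.0 and 187 CPM) overlapped. Its differences were 2.89 dorsally and 4.57 ventrally. The mean list level was 1.02 to 4.67 in dorsal controls, 4.38 to 7.09 in dorsal mutants, 1.58 to 2.42 in ventral controls and 2.50 to 2.92 in ventral mutants on the log2(CPM + 1) scale. Dorsal mutant 4 lay under dorsal controls 1 and 4, and the ventral groups lay apart by a small step. edgeR called 0 interactions in this list, and 1 of the 16 had an unadjusted p under 0.05.

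Among RPE genes outside melanin synthesis, 8 of 9 had a higher difference dorsally than ventrally, against 52.2% of all genes. The exception was Otx2. Otx2 (chr14:48657677-48673819 on mm10), the homeobox factor that specifies RPE, was higher on both sides. It was at 48.3, 0, 0 and 64.3 CPM in dorsal controls and at 248, 160.0, 369, 144 and 158 CPM in dorsal mutants. Ventral controls had 0, 0, 0 and 3.54 CPM and ventral mutants 56.8, 69.2, 86.9, 51.0 and 17.6 CPM. Neither pair of groups overlapped, the differences were 4.75 dorsally and 5.13 ventrally, and Otx2 was among the 5 genes alike on both sides. With controls at 0 on both sides, these differences depend on the pseudocount of 1 CPM. Over 26 alternatives the interaction of Otx2 ran from -11.0 to -0.38, and 0 of them called it. Alike here means only that no difference was shown. Mitf had differences of 2.54 dorsally and 0.52 ventrally, with dorsal controls at 173, 50.9, 0 and 156 CPM and dorsal mutants at 285, 124, 411, 117 and 187 CPM, which overlapped. The 0 was dorsal control 3, whose ventral piece held 105 CPM. That 1 library weighs heavily on the dorsal difference of Mitf. The median of the 9 RPE genes was 3.20 dorsally and 0.52 ventrally, and their median dorsal minus ventral difference was 2.03. Without control 3 these medians were 1.58, 0.58 and 0.53. Of the 9, 3 responded dorsally and 1 ventrally, all higher, against 0.912% and 0.294% of all genes.

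Of the 8 retinal progenitor genes, 2 responded dorsally, both higher, and 0 ventrally, and the sides differed for 0. Over all genes, 0.912% responded higher dorsally, 0.851% responded ventrally, and the sides differed for 1.53%. Pax6, a factor of the optic cup that Pax2 opposes at its border with the stalk, had 106, 39.0, 47.4 and 53.0 CPM in dorsal controls and 227, 357, 291, 396 and 246 CPM in dorsal mutants. Ventral controls had 50.6 to 107 CPM and ventral mutants 56.1 to 193 CPM. Pax6 was therefore apart dorsally and overlapped ventrally, with differences of 2.36 and 0.64. The list had medians of 1.29 dorsally and -0.05 ventrally, and a median dorsal minus ventral difference of 1.08. Without control 3 these were 0.70, -0.03 and 0.70.

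Of 13 proneural and neurogenic genes, 12 (92.3%) had a higher difference dorsally than ventrally, against 52.2% of all genes, with medians of 2.51 dorsally, 0.68 ventrally and 1.75 for the dorsal minus ventral difference. Dorsally 3 of the 13 responded, all higher, and ventrally 0, and the sides differed for 0. The shares over all genes were 0.912%, 0.851% and 1.53%. Of these genes, 9 had a group at or under 3 counts in all its libraries, and edgeR called 0 of the 13. Gadd45g, which is switched on in newborn neurons, had 0, 0, 0 and 7.47 CPM in dorsal controls and 106, 38.3, 96.1, 102 and 125 CPM in dorsal mutants, without overlap. Ventrally it had 0.102, 10.6, 0 and 0 CPM in controls and 0, 35.2, 28.9, 58.0 and 0 CPM in mutants, which overlapped. Genes of differentiated neurons and axons had medians of -0.16 dorsally and -0.98 ventrally, and a median dorsal minus ventral difference of 0.44, which became 1.31 without control 3. Nefm, a neurofilament that shares 19.2% of its exonic bases with Nefl, differed by -0.16 dorsally and 0.83 ventrally.

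**Figure D3:**
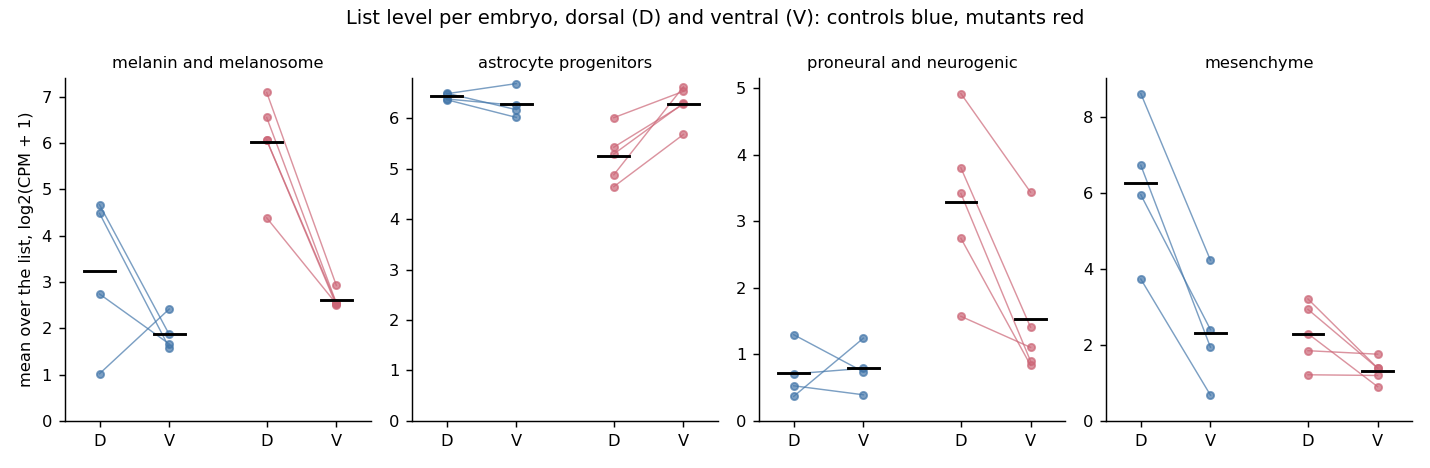
Mean level over a gene list on the log2(CPM + 1) scale in the dorsal (D) and ventral (V) piece of each of 4 control and 5 mutant embryos, with black bars for group means. Dorsally the mutant mean was higher for the melanin and proneural lists and lower for the astrocyte progenitor and mesenchyme lists, and dorsal control 3 had the highest mesenchyme level (8.61) and the lowest melanin level (1.02) of the dorsal pieces.

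Elovl4, an elongase of very long fatty acids, was among the dorsal-only genes of no list. It had 6.49, 2.92, 1.06 and 2.22 CPM in dorsal controls and 158, 117, 70.9, 85.0 and 112 CPM in dorsal mutants. Its ventral controls (7.14 to 37.6 CPM) and ventral mutants (7.29 to 73.8 CPM) overlapped, and its edgeR interaction was 4.81 ± 1.79 (unadjusted p = 0.012). Akap12, a scaffold for protein kinase A, had 180.3, 298, 1342 and 312 CPM in dorsal controls and 75.3, 34.5, 45.7, 27.2 and 93.8 CPM in dorsal mutants, with the highest value in dorsal control 3. Ventrally it was at 59.1 to 302 CPM in controls and 28.4 to 244 CPM in mutants, and its edgeR interaction was -3.32 ± 0.82 (unadjusted p = 0.000342, adjusted p = 0.495).

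A response on the ventral side only was rare. Psen2, a subunit of gamma-secretase, was at 0.204, 0.992, 2.97 and 3.54 CPM in ventral controls and at 38.1, 7.99, 20.2, 22.2 and 31.4 CPM in ventral mutants. Dorsally it was at 153, 34.6, 13.0 and 38.7 CPM in controls and 11.2, 20.3, 27.9, 7.52 and 39.5 CPM in mutants. The ventral groups were apart and the dorsal ones overlapped, with differences of 3.12 and -1.12. Nrbp2, a pseudokinase, was lower ventrally, at 28.1, 146, 84.1 and 55.05 CPM in controls and 1.7, 11.5, 0.0294, 0 and 0 CPM in mutants, and its dorsal groups overlapped. Clp1, an RNA kinase of tRNA splicing, differed by -3.40 ventrally and 1.95 dorsally. Med13l, a Mediator subunit, differed by 1.67 ventrally and -0.39 dorsally. The unadjusted edgeR interaction p was 0.0675 for Psen2, 0.332 for Nrbp2, 0.275 for Clp1 and 0.396 for Med13l.

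The genes alike on both sides were Otx2, Ddx21, Fam98a and Ska1, which were higher, and Zcchc18, which was lower. Ddx21, a nucleolar RNA helicase, was at 27.6, 3.6, 44.8 and 37.6 CPM in dorsal controls and 118, 61.7, 61.2, 58.9 and 76.0 CPM in dorsal mutants. Its ventral controls, at 25.3, 26.8, 29.4 and 30.8 CPM, lay just under the lowest ventral mutant, at 32.7 CPM, and the others were at 69.6 to 164 CPM. Zcchc18, a zinc-finger gene on the X chromosome that shares 6.07% of its exonic bases with another gene, was at 156, 256, 196 and 192 CPM in dorsal controls and 42.8, 67.9, 10.8, 11.8 and 54.97 CPM in dorsal mutants. Ventrally it was at 282, 457, 244 and 232 CPM in controls and 85.3, 118, 31.2, 61.0 and 189 CPM in mutants. The Zcchc18 groups did not overlap on either side, and its differences were -2.71 dorsally and -1.83 ventrally. When dorsal and ventral counts were summed per embryo, edgeR called 0 of 15312 genes (0.0%) and 661 (4.32%) had an unadjusted p under 0.05, while DESeq2 called 232.

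Lists of other cells that a piece could hold were measured as well. The median dorsal minus ventral difference was 2.03 for erythroid genes and 2.25 without control 3. It was -1.19 for macrophage genes and -1.29 without control 3. Endothelial genes had 0.06, which turned to -0.38 without control 3, and proliferation genes had 0.12, which became 0.49. Subunits of the SWI/SNF complex had 0.01. The part of these cells in the differences above was not tested.

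**Figure D4:**
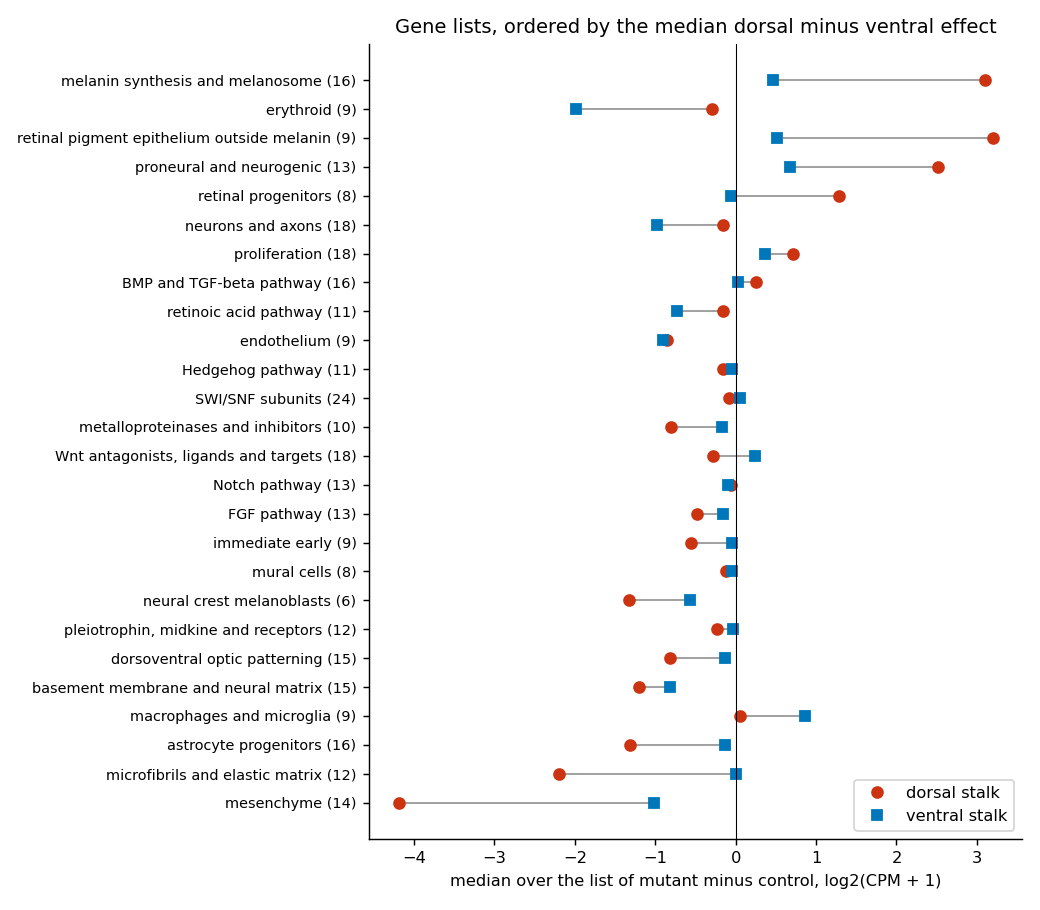
Median mutant minus control difference over each gene list, as log2(CPM + 1), for the dorsal stalk (circles) and the ventral stalk (squares), with the number of genes tested in parentheses. Lists are ordered by their median dorsal minus ventral difference, from mesenchyme (-3.28) to melanin (3.001).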

How the data were processed

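RNA was measured in dorsal, ventral and axon-rich pieces of the E14 stalk, 27 libraries in all. The deposited table holds raw counts of reads in each gene. The authors obtained them with Seq2Science, STAR on mm10 and HTSeq; versions, annotation release and strand setting are not given in the sources used here, so genes that share exonic bases are named with that share. Reads were single-end. Groups, batch (A or B) and embryo numbers came from the labels. Batch A held 1 control and 3 mutant embryos and batch B 3 control and 2 mutant embryos, so batch and genotype were unbalanced. The numbers are taken to mark embryos, since the study's methods describe 3 pieces from each embryo. Same-numbered dorsal and ventral deviations correlated at 0.0139 to 0.142 over 7594 genes, 2 of 9 above 0.1. Nothing says whether the embryos came from separate litters.

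Of 55487 genes, 22523 had no count, and the 16330 that exceeded 10 counts in 3 or more of the 27 libraries were tested with edgeR 4.0.16 in R 4.3.3 (quasi-likelihood F-test, two-sided, TMM scaling, batch as a term, 6 groups in one fit, Benjamini-Hochberg). The fit within embryos replaced batch by embryo. SEs were derived from the F statistic and are approximate. Levels are CPM by total count; differences use a pseudocount of 1 CPM. Symbols and positions came from GENCODE M21, matching 55227 identifiers. Exact permutation tests enumerated all 126 splits and doubled the smaller tail, so the smallest p they can give is 0.0159. Within batch, 40 splits were enumerated and no p can be under 0.025. No 2 libraries were identical. Scripts were tested on simulated data. DESeq2 1.42.0 and limma 3.58.1 were alternatives.

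The comparison, the lists of genes and the rule by which genes are named were chosen with earlier results of these data known. Named genes are 13 that the study discusses, the called genes, the 8 of smallest interaction p per direction, those of largest effect per response class, and list members. The genes picked by p or effect had a mean of at least 10 CPM and a proper symbol. The text describes part of them. Tissue of another stage was not analysed here.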

Additional observations from a re-analysis of the deposited data

Results flagged for a closer look

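The effect of the mutation differed between dorsal and ventral stalk for Ptn (edgeR interaction -2.37, adjusted p = 0.00232, lower dorsally in 5 of 5 mutants). For Smarcc2 the effects were -2.44 apart by an unadjusted exact permutation test (exact p = 0.0317, and 0.19 after adjustment over the 18 single-value tests). That adjustment cannot decide here, since even the smallest possible exact permutation p, 0.0159, could not pass it alone.

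Among 156 groups of 4 or 5 libraries examined for single libraries that stand far from the rest, 8 had one, and chance gives about 1 in 20 groups. In ventral controls these were Gpr143 at 0.0621 CPM in control 4 with the others at 0, Otx2 at 3.54 CPM in control 4 with the others at 0, Sox9 at 575 CPM in control 3, Vim at 3342 CPM in control 3, and the mean level of neuron and axon genes at 6.19 in control 2. In ventral mutants they were Dkk1 at 18.7 CPM in mutant 4 with the others at 0, the mean level of melanin genes at 2.92 in mutant 3, and the mean level of proneural genes at 3.44 in mutant 2.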

How the results depend on the processing

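Ptn kept its direction in all 26 alternatives, from -2.59 to -1.999, and was called in 19, with adjusted p from 1.2e-13 to 1. It was not called with no batch term (0.481), in batch A or B alone, with limma voom (0.992 and, with embryo as a random block, 0.987), without control 3, or, chosen after seeing the data, in the 18 dorsal and ventral libraries with the replicate block (0.0786). Limma's trend method, also chosen after seeing the data because voom gave Ptn weights of a very wide range, gave adjusted p = 0.000423, and 6.27e-05 with the replicate block.

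The interaction, with 1 gene called, gave 0 with no batch term, in batch A, in batch B and in the 18 libraries with the replicate block (0 there within embryos too). It gave 2 in the 18 libraries, 2 with non-legacy edgeR, 15 with no count filter, 11 with voom, 11 with its random block, 590 with DESeq2, and 0 (without control 3) to 2 (without mutant 1) leaving out 1 embryo. Of the 590, 575 had a library at 10 counts or fewer. The replicate block, alone or with batch by region, left 1. The dorsal count of 2 became 10 with no batch term, 1 in batch A, 0 in batch B, 8 in the 18 libraries, 11 with RLE scaling, 51 with no filter, 4 with a stricter one, 35 with non-legacy edgeR, 658 with DESeq2, 84 with voom, 84 with its random block, 39 with limma's trend, and 2 to 7 leaving out 1 embryo (7 without control 1, 4 without mutant 1). The ventral count of 0 became 20 with no filter, 507 with DESeq2, 9 with voom, 9 with its random block and 1 with limma's trend, and stayed 0 leaving out each embryo. For summed or averaged sides the count of 0 became 1 with no batch term, 232 with DESeq2, 1 for the average of both contrasts, 31 for that average with voom, and 0 to 1 leaving out 1 embryo (1 without control 4). No replicate block could be fitted for a single side, because genotype lies between embryos. The causes were not tested.

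The dorsal-only class had 83 to 121 genes over pseudocounts, scalings and limits, with 83 to 107 of the 107 kept, and 148 to 226 leaving out 1 embryo, with 99 to 106 kept. The numbers were 222, 188, 223 and 226 without control 1, 2, 3 or 4, and 168 and 169 without mutant 3 or 5. Smaller groups overlap less often, and the split by direction also varied with the control left out. It was 57 higher and 166 lower without control 3, and 114 higher and 112 lower without control 4. What made the numbers larger was not tested. The ventral-only class had 7 genes at a difference of at least 2 and 27 to 64 leaving out 1 embryo, and the class alike on both sides 3 and 9 to 25. Smarcc1's difference between the sides turned from 0.05 to -0.01 with a pseudocount of 0.1 CPM (exact permutation p = 0.968). Without control 3, the median dorsal minus ventral difference became 0.49 for proliferation, -0.51 for Hedgehog and -0.92 for FGF genes. Without mutants 1 and 2, left out after seeing the data because their dorsal astrocyte progenitor levels were lowest, it became -0.99 for Wnt, -0.68 for Hedgehog and 1.001 for neuron and axon genes. Several interactions that were not called had values on both sides of 0 over the alternatives, from -5.70 to 5.94 for Col1a1, -1.80 to 1.71 for Nefm, -0.32 to 2.67 for Mitf, -0.67 to 0.46 for Ddx21 and -0.10 to 0.83 for Smarca4. With so few embryos, a gene with no call can still differ.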

Other observations

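The genes described here were picked after their values were seen. Ntn1, the midline attractant netrin-1, had 204, 280.3, 157 and 545 CPM in dorsal controls and 1.47, 93.7, 33.6, 68.1 and 97.8 CPM in dorsal mutants. Its ventral controls (103 to 387 CPM) and ventral mutants (184 to 589 CPM) overlapped, and its edgeR interaction was -2.61 ± 0.96 (unadjusted p = 0.0109, adjusted p = 0.495). Slit2, a repellent of retinal axons, had 338, 319.9, 300.1 and 271 CPM in dorsal controls and 99.8, 76.1, 48.9, 133 and 177 CPM in dorsal mutants. Its ventral groups overlapped as well, at 168 to 302 CPM and 158 to 495 CPM, and its edgeR interaction was -1.92 ± 1.01 (unadjusted p = 0.0665). Epha3, a receptor for ephrins that is also expressed in mesenchyme, had 34.5, 195, 489 and 200.1 CPM in dorsal controls and 0.207 to 19.4 CPM in dorsal mutants.

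The glycolytic enzyme Eno1 was the opposite case, at 155 to 578 CPM in dorsal controls and 727 to 2026 CPM in dorsal mutants, with ventral controls at 403 to 802 CPM and ventral mutants at 472 to 1575 CPM. Its edgeR interaction within embryos was 1.30 ± 0.29 (unadjusted p = 0.000207, adjusted p = 0.846). Atoh7, the factor of retinal ganglion cell birth, was at 0 in the 4 dorsal and the 4 ventral controls. It reached 24.0, 405, 1.77, 43.0 and 0 CPM in dorsal mutants and 212 CPM in the ventral piece of mutant 2, with 0.279 CPM in mutant 4 and 0 in the others.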
